A study of Mus musculus with 4 samples.

Results

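The tricarboxylic acid (TCA) cycle enzymes were followed here through 9 genes, Cs, Idh3a, Idh3g, Ogdh, Suclg1, Sdha, Sdhb, Fh1 and Mdh2, in the liver of ABCA1-transgenic mice. A probe set, a group of short probes that together read 1 transcript, was taken when the platform annotation gave it exactly 1 of these gene symbols. This gave 16 of the 22626 probe sets that are not controls, and 9 of the 12393 genes with such a probe set. The rule uses no measured value.

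Liver RNA from 4 mice was hybridised, 1 array each, and all 4 belong to 1 group (ABCA1-TG, biological replicates 1 to 4, called mouse 1 to mouse 4). The mice were C57BL/6 males of 5 to 6 months on the NIH36 diet that carry an ABCA1 transgene. The title of the series places the transgene on an LDL receptor -/- background and the sample descriptions place it on an LDL receptor +/- background, so the receptor genotype of these mice is uncertain. The labels do not name the promoter or species of the transgene, or the number of founder lines. Wild-type arrays named in the design were not analysed here, so the values show how the cycle genes varied among transgenic livers and not what the transgene did. The labels do not say whether the replicates came from separate cages or litters.

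The cycle runs in the mitochondrial matrix. It oxidises acetyl-CoA from pyruvate, fatty acids and amino acids to carbon dioxide and hands the electrons to the respiratory chain as NADH and as reduced ubiquinone. In liver it also works as a hub: citrate leaves it for fatty acid and cholesterol synthesis, malate and oxaloacetate leave it for glucose synthesis, and amino acid carbon enters it.

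The signal, a linear intensity, was analysed as log2. Array medians were 278, 302, 305 and 267 in mice 1 to 4. On the log2 scale they lay -0.05, 0.07, 0.09 and -0.11 from their mean, so differences of that size between mice depend on the scaling. Every array pair correlated at 0.950 to 0.959 across probe sets (Pearson's r; probe sets are not independent replicates). Hepatocyte identity was clear, since all 8 hepatocyte markers, among them Alb and Apoa1, lay at or above the 98.7th percentile of level. The array samples bulk tissue, in which fewer cells of a type and less RNA per cell cannot be told apart.

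The cycle genes were measured well above the dim end of the array and differed little between the livers. Mean levels of the 16 probe sets ran from 8.66 to 14.26 log2, so all 16 passed a minimum mean level of 8. The highest and the lowest mouse differed by 1.06-fold to 1.53-fold, with a median of 1.16-fold, against a median of 1.58-fold over all probe sets and 1.33-fold over the 9239 probe sets in the same range of level. The SD over mice had a median of 0.10 log2 in the members, against 0.30 over all probe sets and 0.19 over those in the same range of level. Most members lie near the top of that range, where the spread is smaller for any gene. Relative to the SD typical of its own level the median member was at 0.69, against 0.95 over the probe sets in that range. The folds of the members ran from 1.06 to 1.45 with quantile-normalised arrays, and from 1.05 to 1.58 with arrays shifted to the same median.

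**Figure D1:**
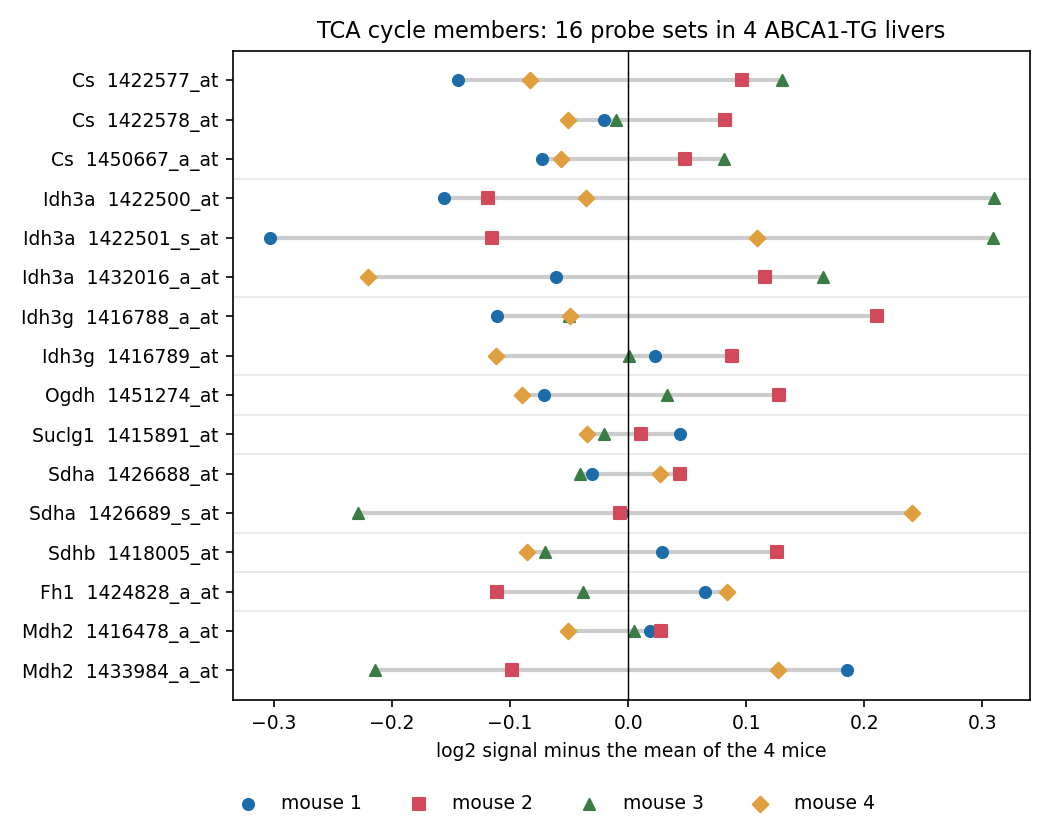
Each row is 1 of the 16 probe sets of the 9 cycle genes, and the x axis is the log2 signal in each mouse minus the mean of the 4 mice. The grey bar spans lowest to highest mouse; the widest, for Idh3a on its _s_at probe set, covers 0.61 log2 while that for Suclg1 covers 0.08.

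Excess spread was tested for each probe set by setting its variance between the 4 mice against the variance typical of its level (limma, F-test, Benjamini-Hochberg adjustment over all 22626 probe sets, threshold 0.05). Of the member probe sets 0 of 16 passed, and 0 of 16 had an unadjusted p under 0.05. Over all probe sets 0 (0%) passed after adjustment and 839 (3.71%) had an unadjusted p under 0.05, so the members' count of 0 does not set them apart. The adjusted p of the members ran from 0.977 to 1.00. The typical variance was fitted to these same arrays, and the test did not call spreads far wider than those of the members. Mb, a skeletal muscle marker, differed 91.8-fold between its highest and lowest mouse and had an adjusted p of 0.247 (limma). Failing this test therefore does not show that a member was steady. The SD was below the typical SD of the level in 12 of 16 member probe sets, against 52.4% of all probe sets. The SD of a single probe set from 4 arrays is known only to within 0.57 to 3.73 times its value (95% interval), so the number of arrays limits how firmly a narrow spread can be stated.

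**Figure D2:**
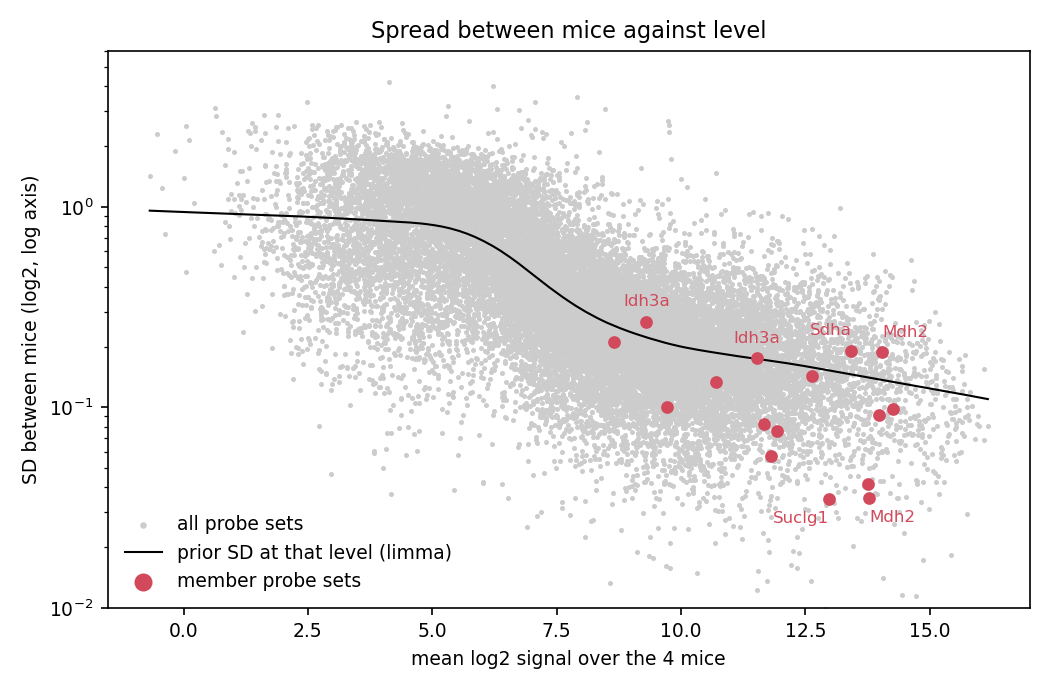
The SD between the 4 mice (y axis, log2 units on a log axis) is set against the mean log2 signal (x axis) for all 22626 probe sets, in grey, with the 16 member probe sets in red and limma's prior SD as a line. Most members sit below the line, and 4 of 16 above it, of Mdh2, Sdha and, on 2 probe sets, Idh3a.

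Citrate synthase, Cs, joins acetyl-CoA to oxaloacetate and is the entry to the cycle. It was read by 3 probe sets. The brightest measured 11.86, 11.98, 12.02 and 11.88 log2 in mice 1 to 4, a mean of 11.93 ± 0.08 (SD, n = 4). Mice 2 and 3 were the higher pair here and on the dimmest, which measured 10.57, 10.81, 10.84 and 10.63. The remaining probe set measured 11.79, 11.89, 11.80 and 11.76, with only mouse 2 apart from the others. The highest mouse exceeded the lowest by 1.11-fold on the brightest, 1.21-fold on the dimmest and 1.10-fold on the remaining one. With arrays shifted to the same median the highest mouse on the brightest probe set was mouse 4 and the fold was 1.05, so the order of the mice for Cs is not settled.

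Isocitrate dehydrogenase of the NAD-dependent kind oxidises isocitrate to 2-oxoglutarate and is a regulated step, switched by ADP and NADH. Idh3a encodes its catalytic alpha subunit. On its widest probe set it had the largest fold between mice of the 9 genes in the deposited and the quantile-normalised values. On the brightest probe set of each gene, as deposited, Mdh2 had a fold of 1.32 and Idh3a 1.31. With arrays shifted to the same median Sdha reached 1.58 and Mdh2 1.45, against at most 1.39 for Idh3a. Its 3 probe sets measured as follows in mice 1 to 4. On the brightest the levels were 11.46, 11.64, 11.69 and 11.30 log2. On the _s_at probe set, whose ending marks probes that can match more than 1 transcript, they were 9.0, 9.19, 9.62 and 9.42, and on the dimmest 8.50, 8.54, 8.97 and 8.62. Mouse 3 was the highest on all 3 probe sets, also with quantile-normalised arrays and with arrays shifted to the same median. The lowest mouse differed, being mouse 4 on the brightest probe set and mouse 1 on the others. The fold between highest and lowest mouse was 1.31 on the brightest, 1.53 on the _s_at and 1.38 on the dimmest probe set. Without mouse 3 the SD on the dimmest was 0.06, against 0.21 with all mice, and on the _s_at probe set it was 0.21, against 0.27. On the brightest it was 0.17 without mouse 3, against 0.18 with all mice, and 0.12 without mouse 4.

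Idh3g encodes a regulatory subunit of the same enzyme. It measured 12.52, 12.85, 12.59 and 12.59 log2 in mice 1 to 4 on its brighter probe set, and 11.69, 11.75, 11.66 and 11.55 on the dimmer one. Mouse 2 was the highest on both, by 0.28 log2 over the mean of the other 3 mice on the brighter and 0.12 on the dimmer. With arrays shifted to the same median it was still highest on the brighter and mouse 1 was highest on the dimmer. The alpha and gamma subunits thus had their highest level in different mice, and neither difference passed the test of spread (adjusted p = 0.977 to 1.00, limma).

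Ogdh encodes the first component of the 2-oxoglutarate dehydrogenase complex, which makes succinyl-CoA. Its 1 probe set measured 9.64, 9.84, 9.74 and 9.62 log2 in mice 1 to 4, a mean of 9.71 ± 0.10 (SD, n = 4) and a fold of 1.16. Suclg1, the alpha subunit of succinyl-CoA ligase, which forms succinate and a nucleoside triphosphate, had one of the smallest spreads of the members. It measured 13.03, 13.00, 12.97 and 12.95 log2, a mean of 12.99 ± 0.03 (SD, n = 4) and a fold of 1.06, and the 95% interval of its SD reached 0.13. The median shift of the arrays moved that fold to 1.15, so a spread as small as that of Suclg1 rests on the deposited scaling.

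Succinate dehydrogenase is the membrane-bound enzyme of the cycle and is also complex II of the respiratory chain. Sdha, its flavoprotein subunit, was read by a pair of probe sets that gave different pictures. On the brighter it measured 13.73, 13.80, 13.72 and 13.79 log2 in mice 1 to 4, with a fold of 1.06. On the dimmer, an _s_at probe set, it measured 13.42, 13.42, 13.20 and 13.67, with mouse 3 lowest, mouse 4 highest and a fold of 1.38. Without mouse 4 the fold on this probe set was 1.17, and without mouse 3 it was 1.19. Sdhb, the iron-sulfur subunit that passes the electrons on, measured 14.29, 14.39, 14.19 and 14.18 log2 and was highest in mouse 2, with a fold of 1.16. Quantile normalisation left mouse 2 highest for Sdhb, whereas the median shift put mouse 1 highest.

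Fh1, fumarase, hydrates fumarate to malate. It measured 14.05, 13.88, 13.95 and 14.07 log2 in mice 1 to 4, a mean of 13.99 ± 0.09 (SD, n = 4). Mouse 2 was lowest and mouse 4 highest under all 3 scalings, with folds of 1.14 as deposited, 1.13 quantile-normalised and 1.29 with the arrays shifted to the same median. Fh1 was the 1 member whose lowest level on its brightest probe set was in mouse 2.

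Mdh2, mitochondrial malate dehydrogenase, regenerates oxaloacetate and closes the cycle. Its pair of probe sets differed as those of Sdha did. On the brighter it measured 14.23, 13.95, 13.83 and 14.17 log2 in mice 1 to 4, high in mice 1 and 4 and low in mice 2 and 3, with a fold of 1.32. On the dimmer it measured 13.80, 13.81, 13.79 and 13.73, with a fold of 1.06. The brighter had 1.37 times the typical SD of its level, the most of any member probe set, and its adjusted p was 0.977 (limma). On it mouse 1 was highest and mouse 3 lowest under all 3 scalings.

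A second test asked whether the probe sets of a gene shared a difference between mice beyond their disagreement (limma's moderated variance, F-test, Benjamini-Hochberg adjustment over 4956 genes with at least 2 probe sets). Probe sets of a gene on 1 array share RNA and hybridisation, so the test cannot tell animal from array. Of the 5 members it could test, Cs, Idh3a, Idh3g, Sdha and Mdh2, 0 passed and 0 had an unadjusted p under 0.05. Over all genes tested 19 (0.383%) passed and 452 (9.12%) had an unadjusted p under 0.05. That count of 19 was 0 to 4 when any 1 mouse was left out, lowest without mouse 3. Idh3a had the lowest adjusted p of the 5, at 0.561 (limma). Averaged over its probe sets it lay -0.17, -0.04, 0.26 and -0.05 log2 from its mean in mice 1 to 4, a fold of 1.35 between mouse 3 and mouse 1. The other 4 had folds of 1.11 to 1.20 and adjusted p of 0.661 to 0.760 (limma). Across the 9 pairs of probe sets within these genes, 5 had the same highest mouse and 3 the same lowest mouse. Every Idh3a pair had the same highest mouse, as did the Idh3g pair, whereas the pairs of Sdha and Mdh2 did not. Pairs that share a probe set are not independent, and the share over all genes was not computed.

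The 9 genes did not share 1 order of the mice. On the brightest probe set of each gene, 2, Suclg1 and Mdh2, were highest in mouse 1 and 4, Idh3g, Ogdh, Sdha and Sdhb, in mouse 2. Cs and Idh3a were highest in mouse 3 and Fh1 in mouse 4. Over all genes the shares at their highest in mice 1 to 4 were 17.4%, 29.8%, 33.5% and 19.3%. The lowest level was in mouse 1 for Cs and Idh3g, in mouse 2 for Fh1, in mouse 3 for Sdha and Mdh2 and in mouse 4 for the other 4. Over all genes the shares at their lowest in mice 1 to 4 were 28.9%, 20%, 20.4% and 30.7%. The median member, as each mouse minus the mean of the other 3, was at -0.04, 0.06, -0.05 and -0.07 log2 in mice 1 to 4. The same median over all genes was -0.05, 0.06, 0.09 and -0.06. In mouse 3 the members therefore lay 0.14 below the median gene, with 3 of 9 above the other mice, and 0.02 below it after quantile normalisation. With arrays shifted to the same median this gap was again -0.14 log2, and under the other alternatives it was -0.07 to -0.14. Only quantile normalisation brought it near the median gene. The members' own median in mouse 3 was -0.17 with the median shift and 0.01 after quantile normalisation. A low level of cycle genes in mouse 3 therefore depends on the scaling.

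The other genes of the cycle were read from a list of 12, of which 11 were measured (20 probe sets). The list also holds cytosolic enzymes of the same reactions, Aco1, Idh1 and Mdh1, which lie outside the mitochondrial cycle. The 11 measured genes held no mitochondrial aconitase, so that step of the cycle was not read here. For the whole list 0 of 20 probe sets passed the spread test and 1, of Sdhc, had an unadjusted p under 0.05. In the test of shared differences 0 of 7 genes passed and 1, the cytosolic Mdh1, had an unadjusted p under 0.05. The unadjusted shares over all were 3.71% of probe sets and 9.12% of genes tested. The median over this list was at 0.07, -0.04, -0.06 and 0.15 log2 in mice 1 to 4. Idh3b, the further subunit of NAD-dependent isocitrate dehydrogenase, had the smallest spread, at 13.41 ± 0.05 (SD, n = 4). Idh2, the mitochondrial NADP-dependent enzyme, measured 10.86, 11.47, 11.12 and 11.08 log2, with mouse 2 high. Idh1, its cytosolic relative and a source of NADPH, measured 14.47, 13.91, 14.43 and 14.40, with mouse 2 low. On the dimmer probe set of Idh1 the levels were 12.80, 12.55, 12.52 and 12.77, with mouse 3 lowest. The fold between highest and lowest mouse was 1.52 for Idh2 and 1.47 for the brighter probe set of Idh1.

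**Figure D3:**
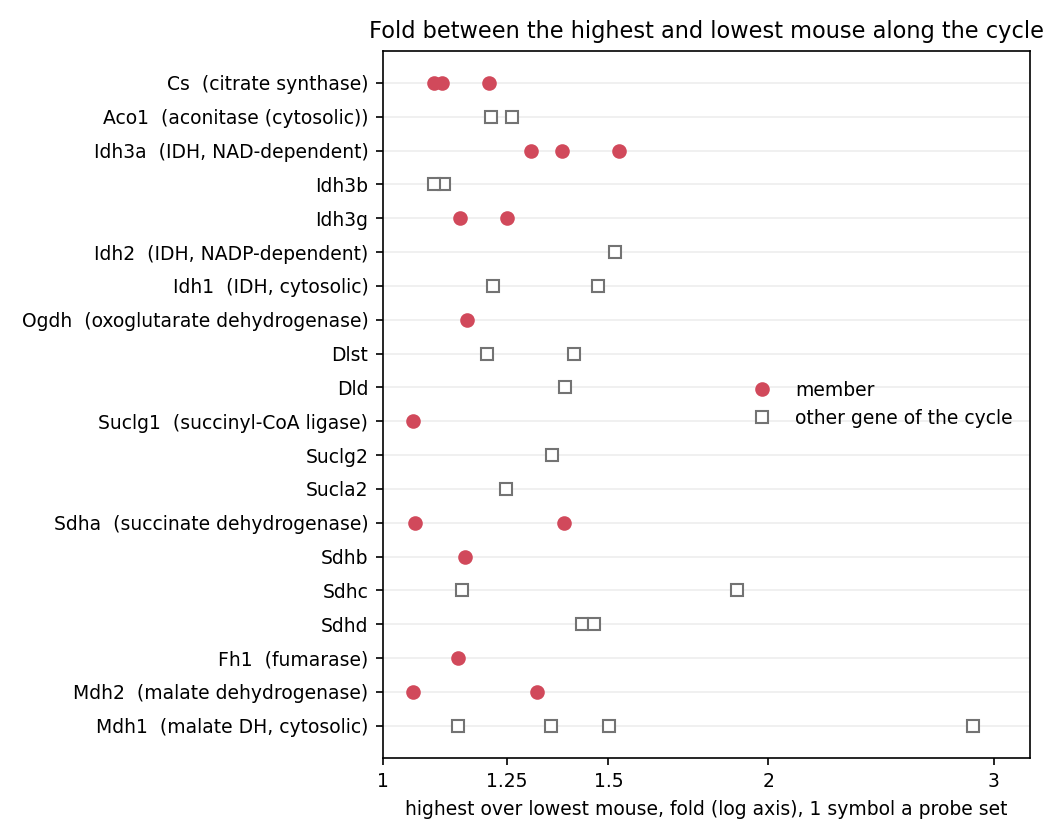
The fold between the highest and the lowest mouse (x axis, log scale) is shown for each probe set, 1 symbol a probe set, with genes in the order of the cycle from top to bottom. The members, in red, reach 1.53. The other genes, open squares, include the cytosolic enzymes Aco1, Idh1 and Mdh1 and run from 1.10 to 2.89. The aconitase step is shown by the cytosolic Aco1 only. Of their 20 probe sets 2 lie beyond the widest member, 1 of Sdhc at 1.89 and 1 of Mdh1 at 2.89, which is dim (mean 6.03 log2).

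The pyruvate dehydrogenase complex feeds acetyl-CoA into citrate synthase and is switched off by its kinases. Of 12 listed genes 8 were measured, and the median was at -0.03, -0.09, 0.07 and 0.03 log2 in mice 1 to 4. Pdhb, a subunit of the complex, measured 13.64 ± 0.05 (SD, n = 4). Pdk4, the kinase induced by fasting, was dim and measured 7.67, 7.09, 7.76 and 8.26, lowest in mouse 2 and highest in mouse 4. Pdk3 was far dimmer, at the 7.6th percentile of level, and measured 4.13, 4.62, 4.74 and 3.09. Of the 13 probe sets of this list 0 passed the spread test and 0 had an unadjusted p under 0.05, against 3.71% of all probe sets.

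Genes that fill or drain the cycle were measured for 14 of 16 entries, with a median of -0.11, 0.06, 0.06 and 0.01 log2 in mice 1 to 4. Pccb, a subunit of propionyl-CoA carboxylase, which feeds succinyl-CoA, had the smallest spread at 11.22 ± 0.02 (SD, n = 4). Pck2, mitochondrial phosphoenolpyruvate carboxykinase, measured 4.61, 6.79, 6.96 and 7.06, low in mouse 1 and dim in all. Me2, mitochondrial malic enzyme, measured 6.46, 6.76, 7.56 and 6.33, with mouse 3 high. Of 25 probe sets 0 passed the spread test and 1 had an unadjusted p under 0.05, against 3.71% of all probe sets. In the test of shared differences 0 of 8 genes passed and 2, Acly and Pck2, had an unadjusted p under 0.05. Over all genes tested that share was 9.12%.

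The respiratory chain and ATP synthase take the electrons the cycle delivers. Of 23 nuclear-encoded subunits 21 were measured, with a median of 0.05, 0.06, -0.08 and -0.06 log2 in mice 1 to 4. Uqcrc1, a complex III core protein, measured 13.01, 13.44, 13.65 and 13.25, lowest in mouse 1. Cycs, cytochrome c, measured 13.99, 13.57, 13.44 and 13.62, highest in mouse 1. Cox5b, a complex IV subunit, measured 14.94 ± 0.06 (SD, n = 4). Of 46 probe sets 0 passed the spread test and 3 had an unadjusted p under 0.05, against 3.71% of all probe sets. In the test of shared differences 0 of 12 genes passed and 3, Cycs, Ndufb5 and Ndufv2, had an unadjusted p under 0.05. Over all genes tested that share was 9.12%.

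Regulators of mitochondrial genes were measured for 9 of 10 entries, with a median of 0.15, 0.02, -0.17 and 0.07 log2 in mice 1 to 4. Ppargc1a, the coactivator that drives mitochondrial biogenesis and, in liver, glucose synthesis, measured 8.93, 9.20, 8.16 and 8.93, with mouse 3 low by 2.05-fold against the highest mouse. Its relative Ppargc1b measured 10.22 ± 0.12 (SD, n = 4), and Pprc1, a further member of that family, measured 8.35, 8.65, 9.04 and 8.52, with mouse 3 high. Of 16 probe sets 0 passed the spread test and 0 had an unadjusted p under 0.05, against 3.71% of all probe sets. In the test of shared differences 0 of 3 genes passed and 1, Ppargc1a, had an unadjusted p under 0.05. Over all genes tested that share was 9.12%.

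**Figure D4:**
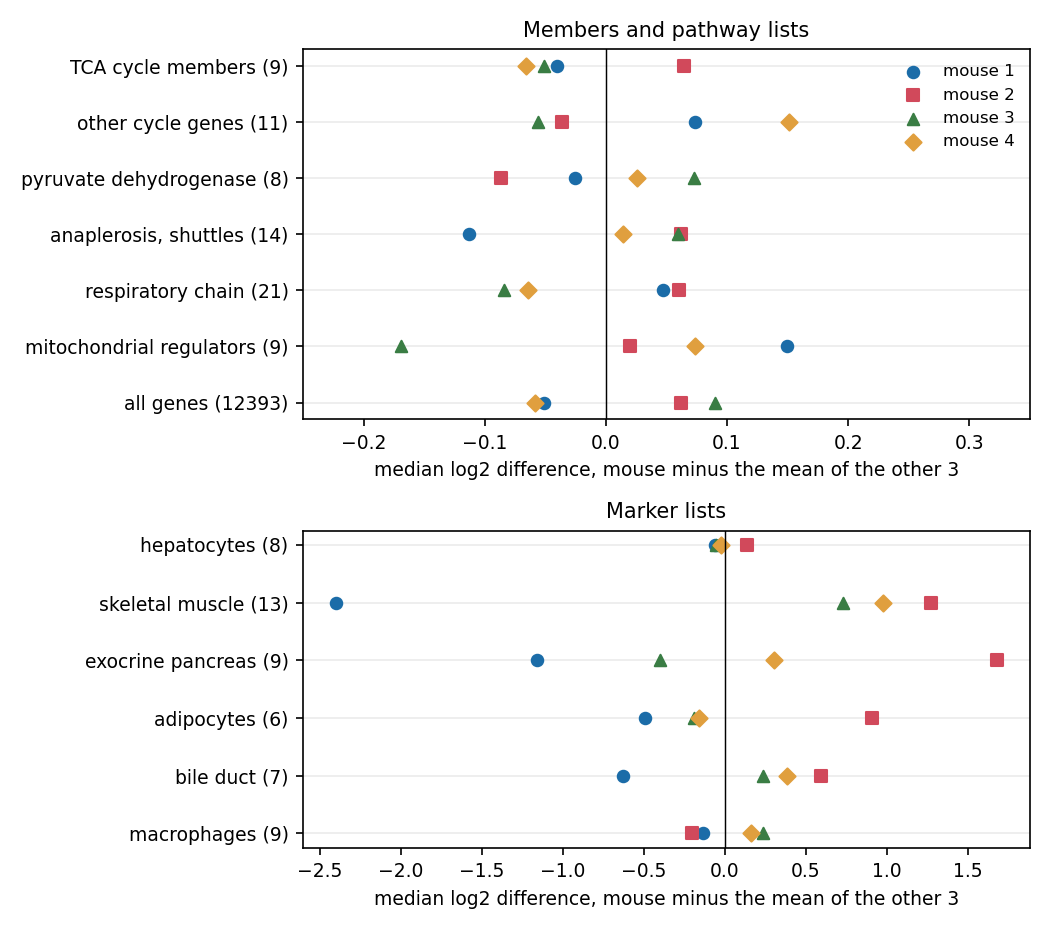
The x axis is the median log2 difference of a list, each mouse minus the mean of the other 3, with the number of measured genes in brackets. The upper panel holds the cycle members, the pathway lists and all genes, and the lower panel, on a wider axis, the marker lists; the members stay between -0.07 and 0.06 while skeletal muscle markers reach -2.40 in mouse 1.

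Markers of skeletal muscle and exocrine pancreas varied more between the 4 pieces of liver than the cycle genes did. On the brightest probe set of each gene, their median SD was 4.49 and 3.53 times that typical of the level. For the cycle genes it was 0.66 times. For adipocyte, macrophage, bile duct and hepatocyte markers this ratio was 1.67, 1.17, 0.91 and 0.78. The median of 13 skeletal muscle markers was at -2.40, 1.27, 0.73 and 0.98 log2 in mice 1 to 4, and that of 9 exocrine pancreas markers at -1.16, 1.68, -0.40 and 0.31. Adipocyte markers (6 measured) were at -0.49, 0.91, -0.19 and -0.16, bile duct markers (7) at -0.63, 0.59, 0.23 and 0.39, macrophage markers (9) at -0.14, -0.20, 0.24 and 0.16, and hepatocyte markers (8) at -0.06, 0.14, -0.05 and -0.02. The summed signal of the muscle markers ran from 10.47 to 13.40 log2 and that of the hepatocyte markers from 18.32 to 18.48, and no marker was at 0, although 5 of the 13 muscle, 5 of the 9 pancreas, 3 of the 6 adipocyte and 6 of the 7 bile duct markers had a mean level under 8. Without mouse 1 the median cycle member was at 0.05, -0.03 and -0.11 in mice 2, 3 and 4. The muscle median without mouse 1, computed after the data were seen, was at 0.27, -0.48 and 0.12. For the Gapdh control, the 3′ minus 5′ difference, a sign of the length of the hybridised RNA, was 1.67 log2 in mouse 1. It was 1.94, 2.03 and 2.0 in mice 2, 3 and 4. For the Actb control the difference was 1.82, 1.88, 2.12 and 2.02 in mice 1 to 4, and for the Pcx control 4.09, 4.79, 4.71 and 4.79. The 3′ signal was thus the higher for each control on every array. Mouse 1 had the highest 18S ribosomal RNA signal, at 9.95 log2, against 8.75 to 8.98 in the others. The part of these differences in the cycle genes was not tested.

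Idh3a, the member with the widest mean profile, was compared with 12384 other genes by the root mean square difference of profiles, each centred on its mean over the 4 arrays. The nearest were Mki67 (0.0039 log2), Zfp90 (0.0069), Ehd1 (0.010), Pde1b (0.011) and Oit3 (0.013). A profile of 4 values is easily matched among 12384 genes, so nearness here does not show that a gene varies with Idh3a. Mki67 and Zfp90 were each read by 1 dim probe set, with a mean of 6.89 and 6.52 log2. Whether these genes share a cause with Idh3a was not tested.

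The promoters of the members were searched for elements known from nuclear genes for mitochondria. RefSeq start sites on GRCm38.p6 matched 8 of the 9 genes by symbol (13 windows, since Ogdh has several starts), and the 250 bases before each start were searched on both strands. The remaining gene had no window and was not searched. A member not named below therefore had either no match or no window. The core of the element of NRF1, a regulator of nuclear genes for mitochondria, was searched as CGCANGCG and was found in Idh3g, Ogdh and Sdha. It was in 4 of the 13 member windows, 2 of them overlapping windows of Ogdh, against 6.76% of all 32851 windows. The core AAGGTCA of estrogen-related receptor sites was in 0 of the 13 windows (4.08% of all), and the core CCGGAAG of GABP sites was in 1, of Idh3g (6.91%). The element TCGCGAGA, added after the sequences were seen, was in 2, of Idh3g and Mdh2 (0.858%). A pair of overlapping matches on opposite strands was counted once, and in Idh3g the matches of the different elements did not overlap.

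The windows of Sdha and Mdh2 are shown because each holds 3 separate matches of 1 element. Those of Idh3g and Ogdh are shown for the same NRF1 core. Capitals mark a match to the element or to its reverse complement, and each sequence runs 5′ to 3′ on the strand of its gene. The stretch for Sdha is chr13:74350241-74350357 on the minus strand, Idh3g at chrX:73786941-73786988 on the minus strand, Ogdh at chr11:6292524-6292571 on the plus strand, with the NRF1 core in capitals, and Mdh2 at chr5:135778439-135778648 on the plus strand, with overlapping matches of TCGCGAGA on the 2 strands in capitals.
Sdha: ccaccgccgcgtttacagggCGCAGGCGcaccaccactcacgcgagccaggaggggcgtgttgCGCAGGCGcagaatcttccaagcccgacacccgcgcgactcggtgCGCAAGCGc
Idh3g: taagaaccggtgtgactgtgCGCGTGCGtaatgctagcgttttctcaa
Ogdh: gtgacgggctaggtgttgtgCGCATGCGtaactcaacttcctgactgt
Mdh2: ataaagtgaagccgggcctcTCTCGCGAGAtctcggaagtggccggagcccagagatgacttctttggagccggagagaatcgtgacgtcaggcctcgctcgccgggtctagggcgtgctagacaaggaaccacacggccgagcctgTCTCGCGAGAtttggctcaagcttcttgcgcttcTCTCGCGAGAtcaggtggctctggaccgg
The Sdha matches begin 97 to 9 bases before the annotated start, those of Mdh2 190 to 27 bases, that of Idh3g 71 and that of Ogdh 35. The genes with the NRF1 core, Idh3g, Ogdh and Sdha, were each highest in mouse 2 on their brightest probe set. So was Sdhb, which was not among the genes found to hold the core, and 29.8% of all genes were highest in that mouse. For Sdha mice 2 and 4 were close, at 13.80 and 13.79 log2. Its dimmer probe set was highest in mouse 4 as deposited, and its brighter one was with arrays shifted to the same median. A link between the core and the order of the mice was not tested. These matches are a description of the letters, and the arrays do not measure binding.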

How the data were processed

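The deposited values are 1 linear signal intensity per probe set and array, for which the submitters' processing notes name RMA (no version), made from 2 ug of total RNA amplified with RiboAmp per the labels' protocols. They are not log2 values, reach down to 0.1, and have the same mean (1000) on every array after trimming 2% at each end. Such values are unusual for RMA alone, so how the authors summarised and scaled the deposited intensities is unsettled, and the array medians reflect that unknown scaling.

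Of 22690 probe sets 64 controls were left out. Signals were taken as log2 with no pseudocount and no further normalisation. Names came from the platform annotation: 20380 probe sets had 1 symbol, 691 several and 1555 none. All 9 member symbols were current in RefSeq by Entrez identifier. Both tests used limma 3.58.1 in R 4.3.3 and were also run on simulated data. The simulated noise followed the fitted prior and was independent between probe sets, with no effect of array or scaling. That run therefore does not show how the tests behave on these arrays. Lists took the probe set of highest mean level per gene. From each of 5 pathway lists the 2 genes of largest and the 1 of smallest SD are named, with 6 marker lists as medians, and the 5 genes nearest to the widest member. The members and lists were chosen with earlier results of these data known. Alternatives were quantile normalisation, a median shift, a floor of 64, a minimum mean level of 8, a pseudocount of 16, leaving out _s_at and _x_at probe sets, other priors, means over probe sets and leaving out each mouse. P-values of the spread test set the spread between these 4 samples against the variance typical of the level. Those of the second test set differences between the samples against the disagreement of a gene's probe sets. Neither reaches beyond these 4 samples.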

Additional observations from a re-analysis of the deposited data

Results flagged for a closer look

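Among 48 probe sets, those of the members, of the other cycle genes and of the pathway genes named above, 4 had 1 mouse far from the other 3. The measure was the gap to the nearest mouse as a share of the whole range, set against Dixon's 95% critical value for 4 samples. None of the 16 member probe sets was among them. For Idh1 on its brighter probe set the share was 0.883, with mouse 2 at 13.91 log2 and the others at 14.40 to 14.47, and on its dimmer probe set, where mouse 3 was lowest, it was 0.0997. For Sdhd, a membrane anchor of succinate dehydrogenase, it was 0.871 on the brighter probe set, with mouse 3 at 11.93 and the others at 12.38 to 12.45. For Pck2 it was 0.889, with mouse 1 at 4.61 and the others at 6.79 to 7.06. For Pccb it was 0.857, with mouse 1 at 11.19 and the others at 11.23 to 11.24, a range of 1.03-fold. Chance alone flags about 1 in 20 groups.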

How the results depend on the processing

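Of the 16 member probe sets 0 passed the spread test under each of 11 alternatives (lowest adjusted p 0.967, limma), and of the 5 members in the test of shared differences 0 passed under each of 11 (lowest 0.273, limma). In the test of shared differences an unadjusted p under 0.05 was reached by Sdha with arrays shifted to the same median, by Cs and Idh3a with signals under 64 raised to 64, and by Idh3a without mouse 2 and without mouse 4. Under these settings, in that order, 615, 515, 472 and 412 of all 4956 genes reached it. With the 2 members' probe sets ending in _s_at left out, 14 probe sets and 4 genes remained to be tested. Over all probe sets the spread count was 13 with mean levels under 8 left out (702 with an unadjusted p under 0.05) and 0 otherwise. The count of shared differences, 19, was 51 with arrays shifted to the same median, 64 with levels under 8 left out, 1 with signals under 64 raised to 64, 0 without _s_at and _x_at probe sets (270 unadjusted), 0 with a prior without trend (368 unadjusted), and 0 to 4 when 1 mouse was left out, with 2, 4, 0 (368 unadjusted) and 1 without mouse 1, 2, 3 and 4. The cause was not tested. With arrays shifted to the same median the median difference of the members was 0.027, -0.028, -0.17 and 0.074 in mice 1 to 4, against -0.041, 0.065, -0.051 and -0.066 as deposited, so its sign turned in mice 1, 2 and 4. When 1 mouse was left out it ran from -0.03 to -0.01 in mouse 1, from 0.05 to 0.11 in mouse 2, from -0.047 to -0.025 in mouse 3 and from -0.11 to -0.05 in mouse 4. Signal over background was not given, so how far dim probe sets are limited by it is unknown. No paired analysis was possible because all 4 arrays form 1 group.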

Other observations

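The membrane anchor subunits of succinate dehydrogenase, chosen here after their values were seen, gave different pictures on their probe sets, as Sdha did. Sdhc measured 11.99, 12.05, 11.65 and 11.13 log2 in mice 1 to 4 on an _x_at probe set, with mouse 4 low and a fold of 1.89, and 12.18, 12.05, 12.03 and 12.24 on its brighter probe set, with mouse 4 highest and a fold of 1.15. The _x_at probe set was the 1 probe set of the other cycle genes with an unadjusted p under 0.05 (adjusted p = 0.977, limma). Sdhd measured 12.38, 12.40, 11.93 and 12.45 on its brighter probe set, with mouse 3 low, and 10.13, 9.59, 9.61 and 9.85 on an _x_at probe set, with mouse 1 high. The _x_at ending marks probe sets with probes that may bind other transcripts.

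Mdh1, cytosolic malate dehydrogenase, partner of Mdh2 in the malate-aspartate shuttle, was read by 4 probe sets. On the brightest it measured 14.42, 14.62, 14.47 and 14.53 log2 in mice 1 to 4, with a fold of 1.15. On both _x_at probe sets mouse 3 was lowest, at 12.85 and 13.11. On the dimmest mouse 4 was lowest, at 5.22, with a fold of 2.89.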
